A study of Rattus norvegicus with 9 samples.

Results

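The miR-23, miR-27 and miR-24 strands come from 2 hairpin clusters, and their reads were taken from small RNA libraries of the rat left ventricle. All rat entries named mir-23a, mir-27a, mir-23b, mir-27b or mir-24 were used, with both strands and every sequence variant. These were 1626 of the 31220 different rat sequences (46358 with the entries of other species), and they held 232862 reads. The 3 hearts came from untreated male Sprague-Dawley rats aged 8 months, without a transgene or drug group, and the free wall of each left ventricle was cut into epicardium, mid-myocardium and endocardium. This gave 9 libraries, 1 per layer of hearts 6, 7 and 8, and the study asks whether miRNAs differ across the wall. Annotated reads numbered 283991 to 1428025 per library, mid-myocardium of heart 6 being the smallest. Abundance is given as RPMM, the reads of a miRNA per 1000000 annotated reads of its library, and 3 reads were worth 2.10 to 10.6 RPMM. Cardiac muscle markers were read in all 9 libraries, with miR-1 at 2664 to 5851 RPMM and miR-133a at 47493 to 132024 RPMM. miR-499 was at 539 to 1535 RPMM and miR-208 at 243 to 968 RPMM. Markers of other cells were read too. The smooth muscle markers miR-143 and miR-145 had means of 111113 and 1726 RPMM, with a summed mean of 112839 RPMM. Endothelial miR-126 had 5620 RPMM. Summed means were 9692 RPMM for leukocyte markers, 2332 for fibroblast markers and 727 for red cell markers, each mostly from a single marker. Of the leukocyte markers, miR-150 had 9113 RPMM, miR-142 535 and miR-223 44.8. The fibroblast markers miR-199a and miR-214 had 2185 and 147 RPMM. The red cell markers miR-451 and miR-144 had 670 and 57.1 RPMM. The neuronal marker miR-124 had 0 reads and the liver marker miR-122 had 2.

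A miRNA is cut from a hairpin by Drosha and Dicer, and the strand loaded into Argonaute pairs with target mRNAs mainly through its seed, bases 2 to 8. The minor strand of a hairpin is marked with an asterisk. The miR-23, miR-27 and miR-24 genes lie side by side in both clusters and can be made from a shared primary transcript. In the cardiovascular system they are known from work on endothelial cells and angiogenesis, on cardiomyocyte growth and, for miR-24, on cardiomyocyte survival.

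In the RefSeq table (build GRCr8) the miR-23b, miR-27b and miR-24-1 hairpins lay on the minus strand at chr17:1818669-1819482, a span of 814 nt, within the span of the gene Aopep. The miR-23a, miR-27a and miR-24-2 hairpins lay on the minus strand at chr19:40859455-40859843, a span of 389 nt, with no gene overlapping them in that table. All 6 hairpins were matched. The reference mature strands are printed because the seeds and the single differing base decide which reads can be told apart, and the capitals mark the seed.
miR-23a: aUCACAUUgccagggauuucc
miR-23b: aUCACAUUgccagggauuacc
miR-27a: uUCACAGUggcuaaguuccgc
miR-27b: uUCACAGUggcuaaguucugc
miR-24: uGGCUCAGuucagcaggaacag
miR-23a and miR-23b shared the seed UCACAUU, and 20 of their 21 bases were the same. The exception, counted from the 5′ end and written from miR-23a to miR-23b, was T19A. miR-27a and miR-27b shared the seed UCACAGU and also differed at a single base, C19T from miR-27a to miR-27b. The seed of miR-24 was GGCUCAG, and its mature strand was identical in both hairpins, so reads of miR-24 could not be split between the clusters. The minor strands of the miR-24 hairpins do differ, and their reference sequences follow because they are the only reads of miR-24 that can be placed on a cluster.
miR-24-1*: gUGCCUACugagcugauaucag
miR-24-2*: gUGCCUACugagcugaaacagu

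miR-27b was by far the most abundant member. It held 77.4% of all member reads, and its mean of 24275 ± 3318 RPMM (SD, n = 9) had rank 9 among 287 rat stems, with ranks of 7 to 12 in single libraries. The epicardial values of hearts 6, 7 and 8 were 25779, 19764 and 21230 RPMM. The mid-myocardial values were 29181, 25728 and 22002 RPMM in the same order of hearts. Endocardium gave 28709, 22003 and 24074 RPMM. The libraries overlapped between layers, and heart 6 had the highest value within each layer.

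miR-23b came next, at 2511 ± 451 RPMM (SD, n = 9) and rank 34. Epicardial values were 3067, 2481 and 1803 RPMM for hearts 6, 7 and 8. In mid-myocardium miR-23b was measured at 3176, 2508 and 2751 RPMM, and in endocardium at 2571, 2055 and 2188 RPMM. The lowest and the highest epicardial libraries enclosed all 3 endocardial values.

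miR-23a followed at 1831 ± 464 RPMM (rank 39) and miR-27a at 1748 ± 361 RPMM (rank 42; SD, n = 9 for both). miR-23a was at 2361, 1717 and 1213 RPMM in the epicardium of hearts 6, 7 and 8, at 2208, 1686 and 2528 RPMM in mid-myocardium, and at 1972, 1338 and 1461 RPMM in endocardium. miR-27a was at 1832, 2076 and 1211 RPMM in epicardium, at 2127, 1906 and 1822 RPMM in mid-myocardium and at 2018, 1142 and 1594 RPMM in endocardium. These 2 neighbours in the order did not differ beyond their spread, since miR-27a was above miR-23a in 4 of 9 libraries.

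miR-24 was the least abundant major strand, at 740 ± 118 RPMM (SD, n = 9; rank 57). Its values were 641, 806 and 592 RPMM in epicardium, 923, 732 and 871 RPMM in mid-myocardium and 808, 662 and 622 RPMM in endocardium. Every library of miR-24 lay below every library of miR-27a, whose lowest value was 1142 RPMM. The order of levels between different miRNAs also carries any difference in how well each sequence is ligated and amplified, which was not tested.

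Of the minor strands, miR-24-2* was the most frequent, with 1481 reads and 204 ± 53.6 RPMM (SD, n = 9). It ranged from 117 RPMM in the endocardium of heart 7 to 291 RPMM in the endocardium of heart 6, so the extremes of the set fell within 1 layer. miR-27b* had 637 reads and 83.8 ± 13.2 RPMM, from 58.9 to 99.6 RPMM. miR-24-1* had 51 reads and miR-27a* 50, both detected in all 9 libraries with 1 to 10 reads each. miR-23a* had 8 reads and miR-23b* 5, each in 5 libraries. A library without a read of them could have held up to 3 reads, 2.10 to 10.6 RPMM, by counting error alone.

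**Figure D1:**
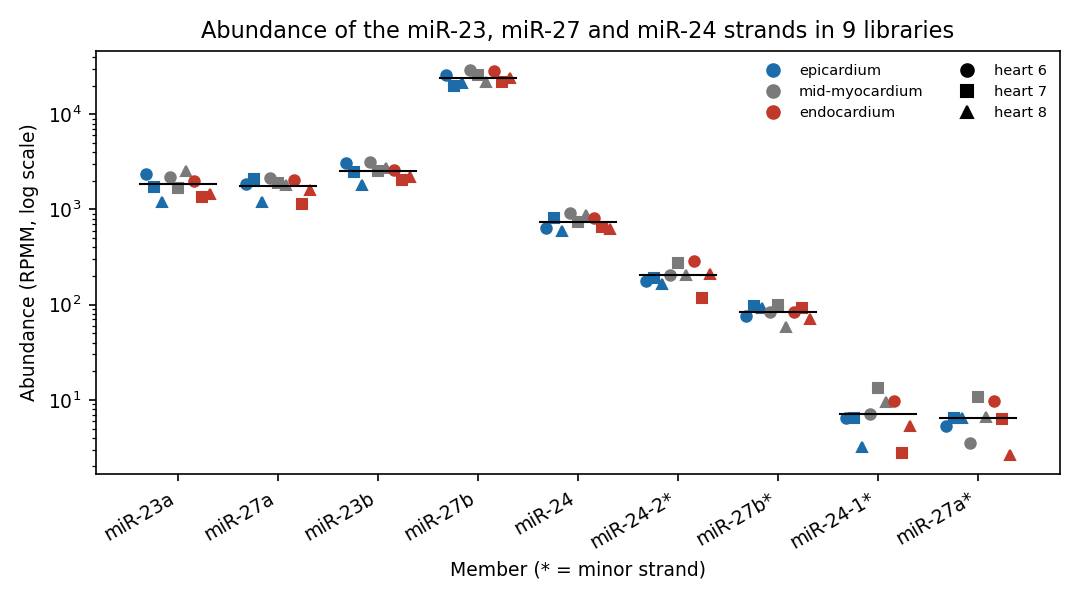
Abundance of the major and minor (*) strands in RPMM on a log axis, 1 point per library, coloured by layer and shaped by heart, with a line at the mean of 9 libraries. miR-27b stands apart at 19764 to 29181 RPMM, and the colours of the layers are mixed within each strand.

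The comparison of endocardium with epicardium asks whether a miRNA is graded across the wall. No member was called different between these layers. limma on log2(RPMM + 1), with Benjamini-Hochberg adjustment over all 230 strands and stems with at least 10 reads in a library, called 0 of the 5 members. It called 0 of the 230 in all, a background of 0%, and 9 of 230 (3.91%) had an unadjusted p below 0.05, none of them a member. edgeR, DESeq2 and Baggerley's test also called 0, with 7, 7 and 6 at an unadjusted p below 0.05. In a bulk layer, fewer cells of a type and less RNA per cell cannot be told apart.

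miR-27b had the largest of the members' differences, endocardium being 0.16 higher on the log2 scale (SE 0.27, 95% interval -0.45 to 0.78, adjusted p = 1.00 by limma, 3 libraries per layer). It was higher in the endocardium of 3 of 3 hearts, as were 23 of all 230 features (10%). miR-23a had the largest in the other direction, -0.12 (SE 0.33, interval -0.88 to 0.64, adjusted p = 1.00 by limma). miR-27a gave -0.11 (interval -0.88 to 0.66), miR-23b -0.08 (interval -0.76 to 0.59) and miR-24 0.04 (interval -0.58 to 0.66). Of the minor strands, miR-24-2* gave 0.11 (interval -0.72 to 0.95) and miR-27b* -0.09 (interval -0.70 to 0.51). The lower bounds ran from -0.88 to -0.45 and the upper bounds from 0.51 to 0.95, with 3 libraries per layer. The intervals are not adjusted for the 230 features, so their bounds are not a limit of detection. Estimates over all 230 ran from -1.99 to 1.80, and 0 were called. The smallest difference that the design could call was not tested. The median over the 5 members was -0.08, beside 0.02 over all 230. In 0 of the 5 members, and in none of the minor strands, were the endocardial and epicardial libraries free of overlap, against 21 of all 230 (9.13%).

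**Figure D2:**
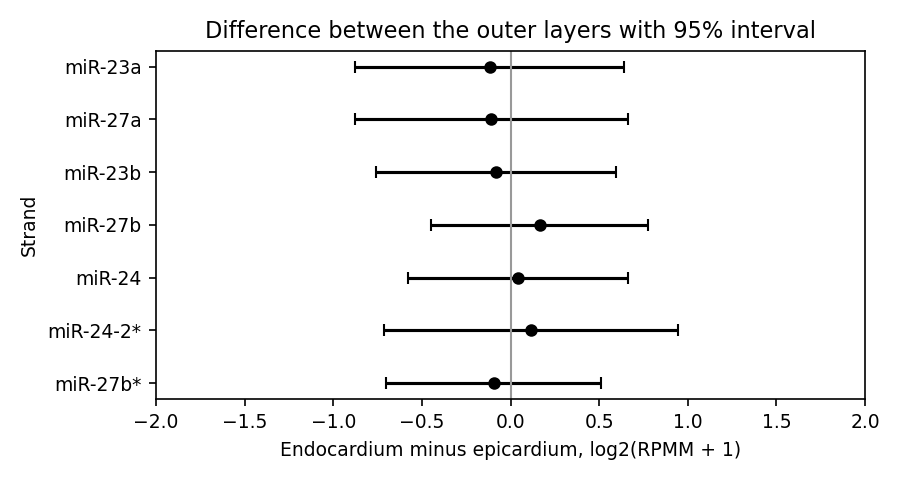
Difference of endocardium minus epicardium on the log2(RPMM + 1) scale for the 7 strands with enough reads, with 95% intervals from limma (3 libraries per layer). Each interval includes 0, and miR-27b has the highest estimate at 0.16.

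With mid-myocardium included, limma's F test over 3 layers called 0 of the 5 members and 0 of 233 in all (0%; 10 of 233, or 4.29%, at an unadjusted p below 0.05). edgeR and DESeq2 also called 0, with 12 and 7 at an unadjusted p below 0.05. The members' adjusted p was 0.93. Mid-myocardium had the highest mean of each major strand. For miR-24 the mean was 842 ± 98.8 RPMM, against 680 ± 112 in epicardium and 698 ± 97.9 in endocardium (SD, n = 3 each). For miR-27b it was 25637 ± 3590 RPMM, against 22258 ± 3136 in epicardium and 24929 ± 3434 in endocardium. Within hearts, mid-myocardium was above endocardium in 3 of 3 hearts for miR-23a, miR-27a, miR-23b and miR-24, beside 33 of all 233 features (14.2%). It was above epicardium in 3 of 3 hearts for miR-23b and miR-27b, beside 36 of 233 (15.5%). These counts were chosen after the values were seen and carry no test. With heart as a block, which takes the layers as paired, limma's F test gave the members an adjusted p of 0.88.

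Hearts were compared in all 9 libraries with layer as a covariate. Heart 6 had the highest mean of the 5 major strands, with miR-27b at 27890 ± 1843 RPMM against 22499 ± 3013 in heart 7 and 22436 ± 1471 in heart 8 (SD, n = 3 layers each). limma's F test called 0 of the 5 members (adjusted p 0.70 to 0.91). It called 0 of 233 in all (0%), and 29 of 233 (12.4%) had an unadjusted p below 0.05, none a member. DESeq2 called 10 of the 233 and edgeR 6, again with no member among them.

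Among 20 other miRNAs known for roles in blood vessels, 15 were tested under the names searched and 0 were called between endocardium and epicardium by limma, with a median difference of 0.07. Reads filed as * were not part of this list. Without them miR-18a, miR-155 and miR-503 had too few reads, at 11, 0 and 38. The names miR-218 and miR-424 matched no rat entry. The rat entries miR-218a and miR-322, the rat counterpart of miR-424, were added after the values were seen and gave -0.16 (SE 0.39) and 0.17 (SE 0.34), both with an adjusted p of 1.00 by limma. They ran from miR-10a at -1.25 (SE 0.63, adjusted p = 0.94) to miR-31 at 1.55 (SE 0.74, adjusted p = 0.94). The endothelial marker miR-126 was measured at 5854 ± 2146 RPMM in epicardium and 4752 ± 1280 in endocardium (SD, n = 3 each). The members' range, -0.12 to 0.16, lay inside that of the list.

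A ratio within a library does not depend on the library total, so the clusters were set against each other this way. miR-27b exceeded miR-27a in 9 of 9 libraries, 14.1-fold on the geometric mean (log2 3.82 ± 0.29, SD, n = 9). The ratio ran from 9.52 in the epicardium of heart 7 to 19.3 in the endocardium of heart 7. miR-23b exceeded miR-23a in 9 of 9 libraries by much less, 1.39-fold (log2 0.48 ± 0.16), with the lowest ratio, 1.09, in the mid-myocardium of heart 8. The minor strands that separate the miR-24 genes leaned to the other cluster. miR-24-2*, from the cluster of miR-23a and miR-27a, exceeded miR-24-1* in 9 of 9 libraries, 31.0-fold (log2 4.95 ± 0.43), although miR-24-1* rested on 2 to 10 reads per library. So the chromosome 17 cluster gave more reads for miR-27 and miR-23, and the chromosome 19 cluster gave more for the minor strand of miR-24.

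Within a cluster the members were unequal too. In the chromosome 17 cluster, miR-27b exceeded miR-23b 9.73-fold (log2 3.28 ± 0.22, 9 of 9 libraries). In the chromosome 19 cluster, miR-27a and miR-23a were near parity (log2 -0.06 ± 0.25). The exact permutation test of the F statistic over all assignments of the 9 libraries to 3 groups of 3, whose smallest possible p is 0.00357, was run on these 5 ratios over layers and over hearts, 10 tests in all. The smallest p was 0.136, for miR-24-2* to miR-24-1* over layers, and the adjusted p was 0.91. Its layer means were 5.12 in epicardium, 4.56 in mid-myocardium and 5.19 in endocardium.

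**Figure D3:**
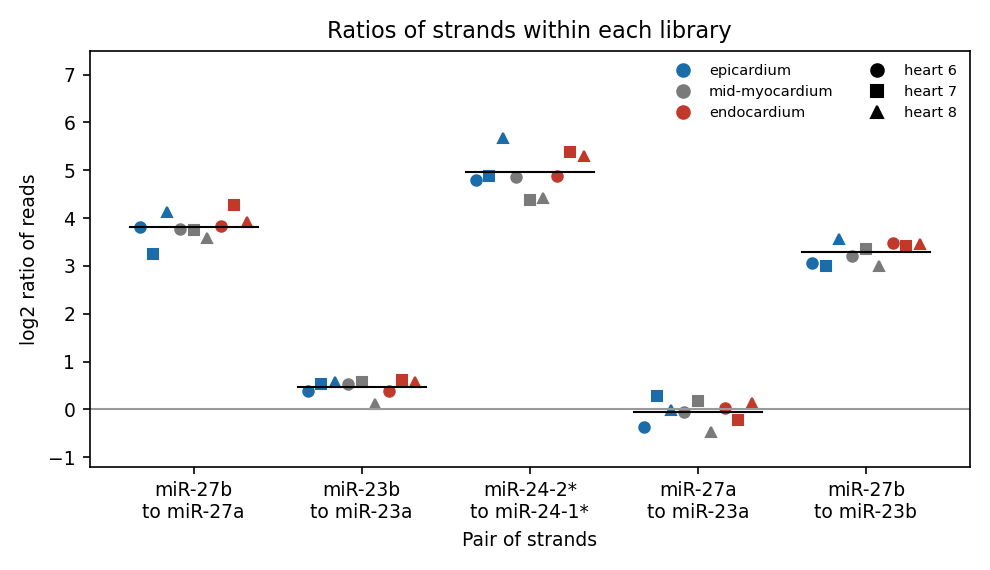
log2 ratio of reads between strands of the 2 clusters and within each cluster, 1 point per library, coloured by layer and shaped by heart, with a line at the mean. miR-27b to miR-27a lies between 3.25 and 4.27 and miR-23b to miR-23a between 0.12 and 0.62, while miR-27a to miR-23a lies on both sides of 0.

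The order of miR-23a and miR-23b depended on which reads were counted. When only the exact reference sequence was counted, miR-23a had 677 ± 161 RPMM and miR-23b 297 ± 66.4 RPMM (SD, n = 9), and the mean log2 ratio of miR-23b to miR-23a turned from 0.48 to -1.18. The ratio of miR-27b to miR-27a rose from 3.82 to 4.97 on the same count. The exact sequence made up 37.3% ± 3.82 of miR-23a reads but 11.8% ± 1.26 of miR-23b reads. It made up 24.7% ± 3.16 of miR-27b, 11.1% ± 1.41 of miR-27a and 11.9% ± 1.44 of miR-24 (SD, n = 9). miR-23a was the only member whose most abundant sequence, summed over the 9 libraries, was the reference one. It was first in 7 of 9 libraries. In the epicardium of heart 7 (35.0% against 30.5%) and the mid-myocardium of heart 8 (37.4% against 31.6%) the first was atcacattgccagggatttcca, which follows the hairpin for 1 base more.

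The variants were read against the RefSeq hairpins, on which 1474 sequences and 230512 reads of the major strands could be aligned. The most abundant sequence of each member is printed in the DNA letters of the deposited reads, with capitals for a base that the hairpin does not hold at that place, because these sequences carry the differences between the members.
miR-23a: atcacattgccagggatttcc
miR-23b: atcacattgccagggattaccacT
miR-27a: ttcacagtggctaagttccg
miR-27b: ttcacagtggctaagttctg
miR-24: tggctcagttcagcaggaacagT
The hairpins themselves continue past the reference mature strand, shown here in capitals, as follows.
Mir23a: aucacauugccagggauuuccAACUGA
Mir23b: aucacauugccagggauuaccACGCAA
Mir24-2: uggcucaguucagcaggaacagGAGUC
The leading miR-23b sequence followed its hairpin for a further 2 bases and then ended in a T where the hairpin has G. It was first in 9 of 9 libraries and held 41.8% ± 3.06 of miR-23b reads (SD, n = 9). The leading miR-24 sequence was the reference with a T where both hairpins have G, with 33.5% ± 5.25 of the reads, first in 8 of 9 libraries. The library in which it was not first was led by tggctcagttcagcaggaac, which is 2 bases shorter than the reference. The leading sequences of miR-27a and miR-27b were 1 base shorter than the reference, with 40.5% ± 2.05 and 50.1% ± 4.65 of their reads, first in 9 of 9 libraries each.

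The 3′ ends fell at different places, except that miR-27a and miR-27b both ended most often 1 nt before the reference end. Reads of miR-23b were longer than the reference at the 3′ end in 78.4% ± 1.80 and shorter in 7.13% ± 1.28 (SD, n = 9). For miR-23a these shares were 44.8% ± 3.74 and 11.8% ± 2.24. Both miR-27 strands leaned the other way, with a shorter 3′ end in 64.5% ± 2.25 of miR-27a and 55.9% ± 4.27 of miR-27b reads. Some reads ended before base 19 and were filed under a joint name of both paralogs, 1864 for miR-27 and 216 for miR-23. They were counted under miR-27b and miR-23a, so shares of a shorter 3′ end are not on equal terms between paralogs. miR-24 had ends on both sides, longer in 49.0% ± 5.57 and shorter in 36.1% ± 6.33. miR-23a and miR-23b, which share all but 1 base of the mature strand, had ranges for a longer 3′ end that did not overlap, 38.4% to 49.98% and 75.8% to 81.0%.

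**Figure D4:**
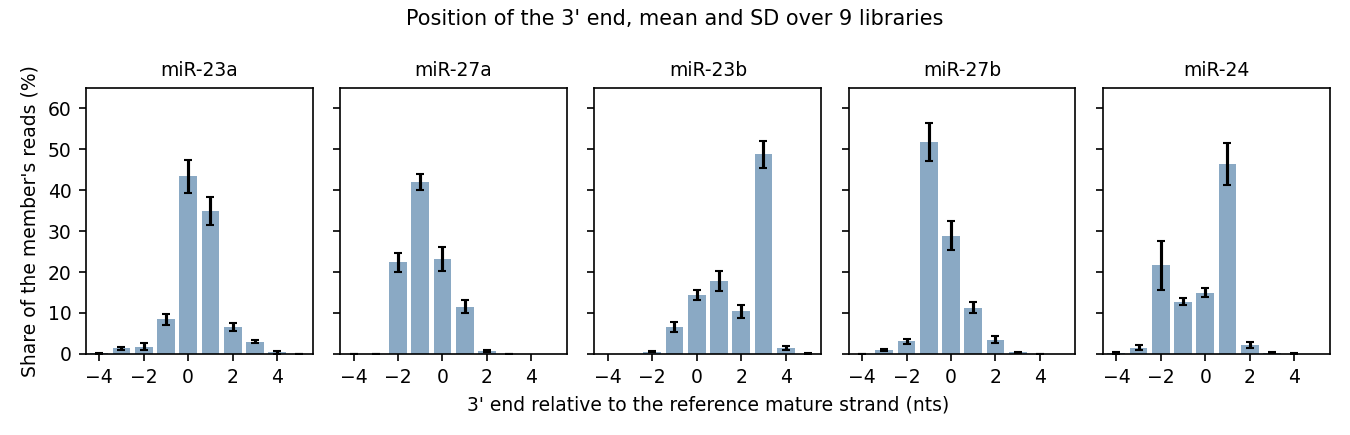
Share of each member's reads (%) by the position of the 3′ end relative to the reference mature strand, in nts, as means with SD over 9 libraries. miR-23b peaks at 3 added nts with 48.8%, miR-24 at 1 added nt with 46.5%, and miR-27b at 1 nt removed with 51.8%.

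A last base that the hairpin does not hold was found in 54.9% ± 4.67 of miR-24 reads and 53.9% ± 2.97 of miR-23b reads, and in 24.4% ± 1.53 of miR-27a, 15.4% ± 1.59 of miR-27b and 10.05% ± 0.72 of miR-23a reads (SD, n = 9). In miR-23b it was mostly a single T, 48.6% ± 3.09 of reads, with a single A in 1.99% ± 0.45. miR-24 had a single T in 40.9% ± 5.15 and a single A in 8.10% ± 0.93. The same share was computed for the 82 rat miRNA names with at least 1000 reads that could be aligned to a RefSeq hairpin. A further 22 names with as many reads were left out, for want of a hairpin or of enough aligned reads. miR-23b had the highest share of a single T of the 82 and miR-24 the third, with miR-652 between them at 42.3% ± 4.92 and miR-143 next at 33.0% ± 2.65. The median of the 76 other names was 2.63%. miR-27a was at rank 10 (15.2% ± 1.57), miR-27b at rank 17 (10.2% ± 0.98) and miR-23a at rank 28 (5.80% ± 1.13). An added T cannot be counted where the hairpin itself continues with T, so the names are not on equal terms. The same holds for an added A. After the reference end the hairpins of miR-23a, miR-23b and miR-27b continue with A, that of miR-27a with C and those of miR-24 with G. Shares of a single A, or of any last base not in the hairpin, are therefore not like measures across the members. These ranks are a description of the libraries, without a test.

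**Figure D5:**
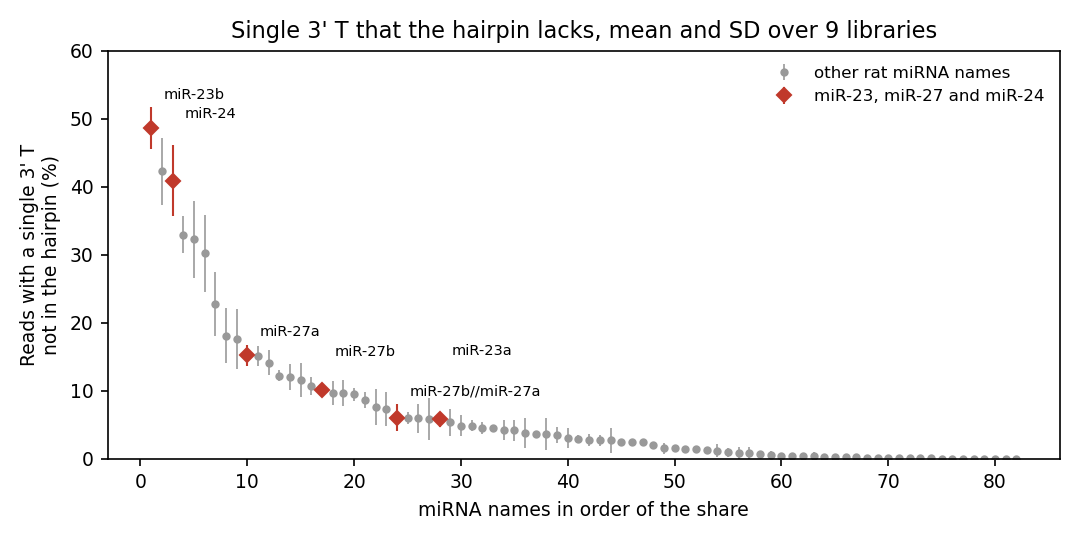
Share of reads that end in a single T the hairpin does not hold (%), for 82 rat miRNA names in order of the share, as means with SD over 9 libraries. Red diamonds mark miR-23, miR-27 and miR-24 names (miR-27b//miR-27a are reads that fit both), and miR-23b stands first at 48.6%.

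The 5′ end, which sets the seed, was that of the reference in most reads of each member. A 5′ end other than the reference was seen in 1.17% ± 0.27 of miR-27a, 1.68% ± 0.15 of miR-27b, 2.96% ± 0.39 of miR-23a, 5.92% ± 1.26 of miR-24 and 6.06% ± 0.55 of miR-23b reads (SD, n = 9). In miR-23b and miR-24 most of these reads lacked the first base, 5.04% ± 0.51 and 4.94% ± 1.16 of all reads, which moves the seed by 1 base. The median over the 76 other names was 1.43%, and of the members only miR-27a lay below it.

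Variation across the wall was looked for in 29 such shares, over layers and over hearts, 58 tests in all, by the same exact permutation test. The design could not call a single share by itself, since the smallest possible p of 0.00357 becomes 0.21 when adjusted over 58 tests. None passed after adjustment (smallest adjusted p = 0.52 by the exact permutation test), and 4 had an unadjusted p below 0.05. The smallest p was that of miR-23b reads with a last base not in the hairpin, over layers (exact permutation p = 0.0179). The values were 53.0%, 50.3% and 52.1% in the epicardium of hearts 6, 7 and 8, 53.7%, 53.3% and 50.3% in mid-myocardium, and 57.8%, 58.3% and 56.3% in endocardium. The 3 endocardial libraries were above the other 6, with 95% Wilson intervals 3.57 to 6.50 percentage points wide. With layers exchanged within hearts only, where the smallest possible p is 0.0278, the exact permutation p was 0.0833. The share of the leading miR-24 sequence over hearts had the same p, 0.0179 by the exact permutation test (adjusted p = 0.52), with 38.5% ± 3.83 in heart 6, 33.3% ± 1.68 in heart 7 and 28.6% ± 4.37 in heart 8 (SD, n = 3 layers).

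miR-24-2* made up 21.4% ± 4.09 of all miR-24 reads (SD, n = 9), the highest share of a minor strand here. It ran from 15.0% (95% Wilson interval 12.98% to 17.2%) in the endocardium of heart 7 to 27.1% (24.1% to 30.4%) in the mid-myocardium of heart 7. miR-24-1* made up 0.72% ± 0.28 of miR-24 reads. The minor strands of miR-27 were rare, 0.35% ± 0.080 of miR-27b and 0.38% ± 0.16 of miR-27a reads, although the levels of the 2 major strands differed 14.1-fold. Among 8 tests of arm shares over layers and hearts, none passed (smallest exact permutation p = 0.0964, adjusted p = 0.77, for miR-27b* over hearts). The most abundant miR-27b* sequence, agagcttagctgattggtgaac, held 79.6% of its 637 reads and was 2 bases shorter at the 3′ end than the reference, which itself had 12 reads. miR-24-2* was led by its reference sequence, with 692 of 1481 reads.

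Base changes inside the mature strand bore on how well the paralogs were told apart. Reads counted under miR-27b with T19C, which makes them equal to miR-27a at the only base that differs, were 0.204% of the reads covering that base. T-to-C changes at the other 6 T positions counted, such as T8C at 0.0561% and T17C at 0.0378%, were rarer. Reads counted under miR-23a with T19A were 0.893% of those covering the base. The T19C and T19A shares take in the reads with a joint name described below. They are therefore not rates of substitution in reads of a single paralog, and the other positions are not a like comparison. A C10T change was seen in 1.80% of miR-23a and 0.743% of miR-23b reads. Reads filed under the joint name of both paralogs numbered 3125 for miR-27 and 365 for miR-23, and were counted under miR-27b and miR-23a. Of these, 1864 and 216 ended before base 19, while 1261 and 149 reached it. Among the reads that reached it, 363 of the joint miR-27 reads had the base of miR-27a, and 117 of the joint miR-23 reads had that of miR-23b. Counting only the reads that hold the differing base moved the log2 ratio of miR-27b to miR-27a from 3.82 to 3.76 and that of miR-23b to miR-23a from 0.48 to 0.52.

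The members' patterns over the 9 libraries were compared with 121 other rat stems of at least 10 reads in every library. These correlations of log2(RPMM + 1) are descriptions over 9 libraries that share totals, hearts and layers. miR-23a and miR-23b resembled each other most among the members (Pearson r = 0.931). Their genes lie on different chromosomes, while their mature strands share 20 of 21 bases. Whether the shared sequence bears on this likeness was not tested. The next highest r, 0.821, was also across the clusters, for miR-27a and miR-23b. Within the clusters r was 0.750 for miR-23a and miR-27a and 0.583 for miR-23b and miR-27b. The other pairs across the clusters gave 0.476 for miR-27a and miR-27b and 0.444 for miR-23a and miR-27b, and those with miR-24 ran from 0.311 to 0.728. The stems most like miR-23a were let-7d (r = 0.955), miR-26a (0.879) and miR-374 (0.851). For miR-23b they were let-7d (0.886), miR-374 (0.880) and miR-181c (0.869). miR-27a was most like miR-30b (0.905), miR-126 (0.895) and miR-223 (0.886), and miR-27b most like let-7a (0.861), miR-208b (0.825) and let-7c (0.819). miR-24 had weaker likenesses, the highest being miR-30b (0.731), miR-34c (0.719) and miR-365 (0.705).

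Entries of other species with the same family names added little. They numbered 198 sequences and 673 reads, 0.289% of the member reads, the most frequent being miR-27b with 268 reads and miR-27a with 165.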

How the data were processed

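Small RNA from the layers of 3 rat hearts went into 9 TruSeq libraries. Per the submitters' notes, reads were matched to miRBase 18 in CLC Genomics Workbench 4.0. The authors deposited annotated sequences in RPM of the annotated reads (RPMM), a grouped table of scaled signal, and counts of unannotated sequences, listed above a read minimum. Each RPMM value was a whole number of reads within 0.05 (100% of 125689), so reads were recovered. The members and lists were chosen with earlier results of these data known. The named items are the 5 members with both arms, the 3 leading sequences of each and the reference one, the 3 most similar stems, and fixed marker and vascular lists.

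Reads were summed by rat name stem, * strands apart (453 features). Features with at least 10 reads in a library were fitted by limma 3.58.1 on log2(RPMM + 1) in R 4.3.3, calling an adjusted p (Benjamini-Hochberg) below 0.05. Alternatives used edgeR 4.0.16 and DESeq2 1.42.0 on the recovered reads, Baggerley's test, other scalings, pseudocounts and filters, and each library left out. Single ratios and shares carry exact permutation tests of the F statistic, which takes differences in either direction (Python 3.11.15). Sequences were aligned to RefSeq hairpins by the first 14 nts with at most 1 mismatch and a shift of up to 5 nts. Scripts were tested on simulated data. The heart number in the labels pairs the layers, since each heart gave all 3. Same-heart deviations correlated at -0.29 to 0.39 (median 0.17, 9 pairs). Those of different hearts correlated at -0.41 to 0.40 (median -0.16, 18 pairs), a range that encloses the same-heart one. Deviations were taken from the mean of the 3 hearts in each layer, so the same-heart and different-heart values are not independent. The 3 libraries per layer come from separate animals. Replicate libraries differed by more than sampling noise (chi-square per degree of freedom 87.9 to 537). Annotated reads ran from 283991 to 1428025 per library. Wilson intervals and floors of 3 reads cover counting error only, as PCR copies could not be told from separate molecules. RNA integrity, qPCR and target predictions were not analysed here.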

Additional observations from a re-analysis of the deposited data

Results flagged for a closer look

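Among the unannotated sequences, which the comparisons of the members do not use, 1 shared at least 16 nts with a member hairpin. It was the 23-nt sequence ttcacagtggctaagttccgaaa, which begins as miR-27a and had 145 reads over the 9 libraries, 1 to 27 per library. There is no control sample against which to set it, and unannotated sequences were listed only above a read minimum.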

How the results depend on the processing

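With heart as a replicate block in limma, 0 features were called between endocardium and epicardium and 0 over layers (8 and 16 at an unadjusted p below 0.05), so the paired fit by limma changed no call. Permuting within hearts gave 0 calls among the ratios, the sequence shares and the arm shares, but its smallest p of 0.0278 can call no single one of them after adjustment, so this bears on no call. No member was called under any alternative run (smallest adjusted p = 0.54 by limma, miR-27b* over hearts without the epicardium of heart 8). Over hearts, the calls among all features moved from 0 to 6 with edgeR, 10 with DESeq2, 3 with TMM scaling, 1 with rat entries as the total, 5 with a pseudocount of 10, 3 with exact sequences, and 0 to 3 with a library left out. Between endocardium and epicardium they moved from 0 to 3 without the endocardium of heart 7 (0 to 3 over the libraries left out). Counting exact sequences turned the mean log2 ratio of miR-23b to miR-23a to -1.18 and moved miR-27b to miR-27a to 4.97, miR-27a to miR-23a to -1.81 and miR-27b to miR-23b to 4.34. Reads with the differing base turned miR-27a to miR-23a from -0.06 to 0.020. Small uncalled differences between endocardium and epicardium changed sign: with exact sequences miR-23a was at 0.032, miR-27a at 0.0087 and miR-24 at -0.15. Over the libraries left out, miR-23a ran from -0.36 to 0.12, miR-27a from -0.34 to 0.11, miR-23b from -0.29 to 0.10, miR-24 from -0.070 to 0.17, miR-24-2* from -0.18 to 0.47 and miR-27b* from -0.20 to 0.0066. The sign turned without the epicardium of heart 6 for miR-23a and miR-23b, the epicardium or endocardium of heart 7 for miR-27a, the epicardium of heart 8 or endocardium of heart 6 for miR-24, the endocardium of heart 6 for miR-24-2* and that of heart 8 for miR-27b*. The cause of these shifts was not tested. Depth limits the rare minor strands, and miR-24-1*, miR-27a*, miR-23a* and miR-23b* had too few reads in a library for the test between endocardium and epicardium.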
